A study of Mus musculus with 6 samples.

Results

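Fibronectin, 20 integrin subunits, 18 cytoplasmic proteins of focal adhesions and 2 syndecans, 41 genes in all out of 21929 in the deposited table, were followed in L929 cells, a mouse fibroblast line. Each gene was found by its symbol, and none of the 41 symbols stood for more than 1 row. The bulk RNA came from L929 cells kept in co-culture. The 3 Biotin-positive libraries are labelled as L929 cells that interacted with MFCSTCL, a name the labels do not spell out, and the 3 Biotin-negative libraries as L929 cells that did not interact with the tumour. Both groups were co-cultured, so no library shows L929 cells grown alone, and all 6 libraries share 1 cell line and 1 batch label. Separate cultures within a group are not stated, and the p-values therefore speak for the spread among these libraries, possibly a technical one.

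Fibronectin is a secreted glycoprotein that cells pull into fibres of the extracellular matrix. Integrins are heterodimers of an alpha and a beta chain that span the membrane, and the pairing decides whether the receptor binds the RGD motif of fibronectin and vitronectin, collagen or laminin. Inside the cell talins and kindlins switch integrins on, and scaffolds and kinases gathered at the integrin tails tie the receptor to actin, forming the focal adhesions through which fibroblasts grip and sense their matrix.

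Values are FPKM, a unit named for scaling by gene length and library size. How it was computed is not given in the sources used here, and orders of genes by level rest on the unit being per length. A library's FPKM summed to between 337771 and 356681, and the depth in reads is unknown. Log2 differences are Biotin-positive minus Biotin-negative on the log2(FPKM + 1) scale, which understates the change of low genes, and adjusted p-values come from limma with Benjamini-Hochberg adjustment over 11029 tested genes. Rose and fell stand for higher or lower Biotin-positive values with an adjusted p under 0.05. Pearson correlations of log2 values between libraries, taken across genes, were 0.998 to 0.999 within a group and 0.977 to 0.978 across groups. Of 12 fibroblast markers, 7 reached 1 FPKM in at least 3 libraries, namely Vim and S100a4, which rose (60.6% of the S100a4 transcript recurs nearly unchanged in another gene, so its level is uncertain), and the collagens Col1a1, Col1a2 and Col3a1 with the receptors Pdgfra and Pdgfrb, which fell. Their list summed to between 2448 and 2519 FPKM in Biotin-positive libraries and between 1969 and 2019 FPKM in Biotin-negative libraries, while Thy1, Dcn, Lum, Fap and Postn stayed below 0.5 FPKM in every library. None of 6 endothelial markers reached 1 FPKM, and their sum lay at 0.451 to 0.811 FPKM in Biotin-positive libraries and 0.186 to 0.251 FPKM in Biotin-negative libraries.

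The transcript for fibronectin was far lower in Biotin-positive cells, while the transcripts of its main receptor chains differed little. Of the 41 genes, 30 reached 1 FPKM in at least 3 libraries and were tested. Of these 14 rose (46.7%), 6 fell (20.0%) and 10 did not pass, against 37.8% of all tested genes that rose and 36.1% that fell. In either direction 20 of the 30 (66.7%) passed, against 73.9% of all tested genes. Of the 6 falls, Itgb2 passed the filter on low values through its Biotin-negative libraries alone, so its test supports nothing. With libraries rescaled to an equal sum, 13 rose and 11 fell, since Sdc4 no longer passed and Itgav, Itga6, Itga7, Ptk2 and Zyx passed as falls. Under that scaling 3688 of the 11029 genes rose and 4502 fell, against 4168 that rose and 3985 that fell without it. Changes of at least 1 log2 unit were seen in 6 of the 30 (20.0%), namely Fn1, Sdc1 and Itgb2 among the falls and Itgb7, Tns3 and Itga3 among the rises, with 8.70% of all tested genes past that size. This count includes Itgb2 and is given as a description. The median log2 difference of the 30 genes was 0.08, against 0.01 over all tested genes, and the median size of the difference without its sign was 0.29, against 0.31.

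**Figure D1:**
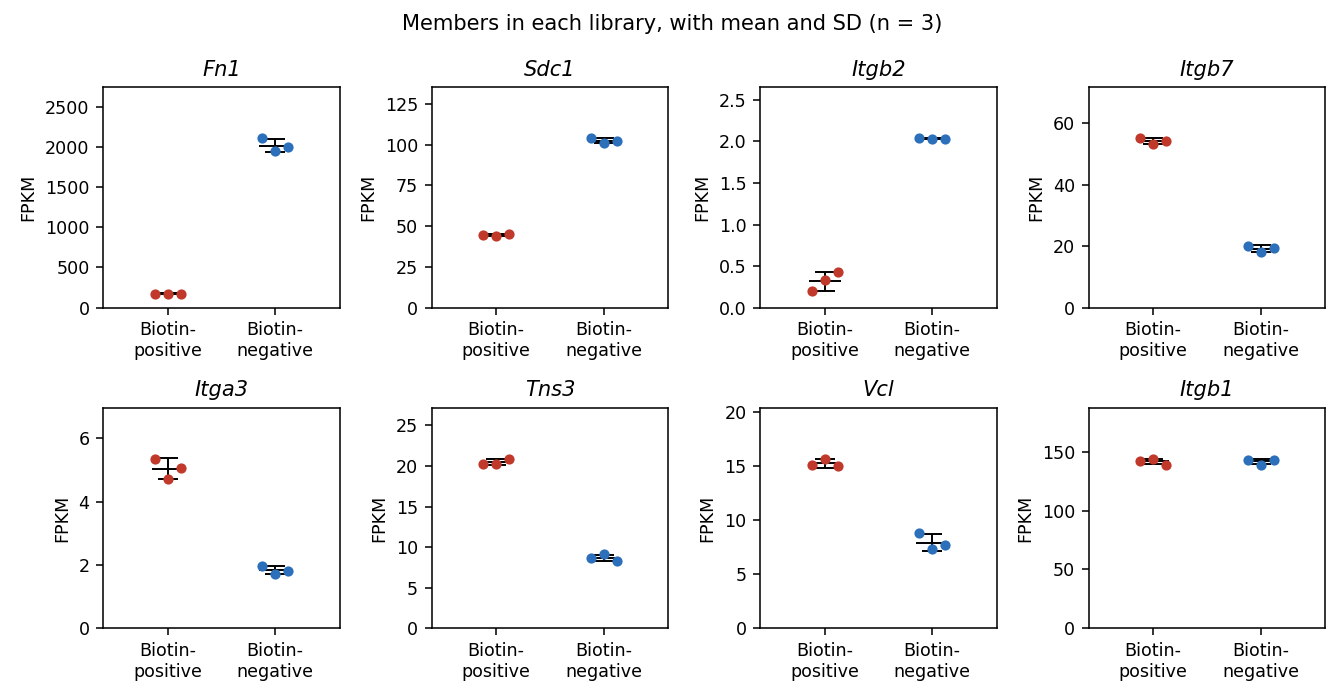
Each panel plots 1 gene, with FPKM on a linear axis from 0 and 1 point per library, Biotin-positive on the left and Biotin-negative on the right, with bars for the mean and SD of 3 libraries. Fn1, Sdc1 and Itgb2 were lower in every Biotin-positive library, Itgb7, Itga3, Tns3 and Vcl were higher in each, and the Itgb1 points of both groups share the range from 139 to 144 FPKM.

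Fn1 encodes fibronectin and lies on chromosome 1 (71585520 to 71653200 in the deposited file, ENSMUSG00000026193). It was at 175, 167 and 175 FPKM in Biotin-positive libraries, against 2109, 1943 and 1997 FPKM in Biotin-negative libraries. The groups lay far apart with little spread inside either, an 11.7-fold lower mean in Biotin-positive cells (log2 difference -3.54, SE 0.0377, limma adjusted p = 2.80e-10). Fn1 was the gene with the 6th highest level in Biotin-negative cells and ranked 288 in Biotin-positive cells, and its fall was number 5 by size among the 11029 tested genes. Fibronectin made up 0.0486% ± 0.00160 of the summed FPKM of a Biotin-positive library and 0.594% ± 0.0227 of a Biotin-negative one (SD, n = 3 each). In bulk RNA, fewer cells of a type and less RNA per cell cannot be told apart, which holds for every difference given here.

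Receptors that bind the RGD motif of fibronectin showed no change of that size. Itga5, the alpha chain of the classical fibronectin receptor, stood at 29.9, 29.9 and 30.7 FPKM in Biotin-positive libraries, against 31.6, 29.8 and 30.5 FPKM in Biotin-negative libraries. The ranges overlapped, and the 95% interval of the log2 difference ran from -0.10 to 0.06 (limma adjusted p = 0.613). The ratio of Fn1 to Itga5 within a library was 5.70 ± 0.129 in Biotin-positive cells and 65.8 ± 0.883 in Biotin-negative cells (SD, n = 3 each; two-sided exact permutation p = 0.10, which is the smallest that 3 libraries against 3 allow). Itgav, the alpha chain shared by vitronectin receptors, averaged 22.0 ± 0.418 FPKM in Biotin-positive cells and 23.8 ± 1.56 FPKM in Biotin-negative cells, and did not pass (limma adjusted p = 0.0766, and 0.0455 as a fall without Biotin-negative replicate 1). Itga8, which encodes another RGD-binding alpha chain, was listed at 0 in all 6 libraries.

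Itgb1 encodes the beta chain that pairs with most of the alpha chains measured here, and it was the most abundant integrin transcript in both groups. It had 142, 144 and 139 FPKM in Biotin-positive libraries, against 143, 139 and 143 FPKM in Biotin-negative libraries. The values interleave, with a 95% interval of the log2 difference from -0.06 to 0.07. The sign of this difference turned under quantile normalization, where Itgb1 was called lower by 0.11 log2 units (limma adjusted p = 0.00289, in a range of 0.00289 to 0.956 over the alternatives). Itgb5, the beta chain that joins alphaV in a vitronectin receptor, fell to 46.4, 46.3 and 45.5 FPKM in Biotin-positive libraries, against 61.2, 54.0 and 55.1 FPKM in Biotin-negative libraries. Its groups did not overlap, and the mean ratio was 0.812 (log2 difference -0.29, SE 0.0478, limma adjusted p = 0.000552), with 10.5% of its transcript nearly the same as another annotated gene. The other partners of alphaV were scarce. Itgb6, the partner in epithelial receptors that free active TGF-beta, was at 0.455 to 0.836 FPKM in Biotin-positive libraries and 0.110 to 0.213 FPKM in Biotin-negative libraries, below the filter and not tested. Itgb3 did not exceed 0.0512 FPKM and Itgb8 did not exceed 0.00597 FPKM in any library.

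Among laminin receptors 1 alpha chain moved. Itga3 stood at 5.35, 4.70 and 5.07 FPKM in Biotin-positive libraries, against 1.96, 1.71 and 1.82 FPKM in Biotin-negative libraries. Every Biotin-positive library was above every Biotin-negative one, a ratio of 2.75 (log2 difference 1.09, SE 0.0662, limma adjusted p = 1.12e-06). Itga6, a laminin receptor chain of higher level, averaged 25.6 ± 0.871 FPKM in Biotin-positive cells and 27.4 ± 0.774 FPKM in Biotin-negative cells and did not pass in the test as run (limma adjusted p = 0.0517). Its difference of -0.10 passed with median-of-ratios scaling (limma adjusted p = 0.0464), and with quantile normalization it was -0.12 (limma adjusted p = 0.0251), while an equal sum per library gave -0.16 (limma adjusted p = 0.00792). Itga7, a chain best known from muscle, averaged 6.67 ± 0.258 FPKM in Biotin-positive cells and 7.41 ± 0.641 FPKM in Biotin-negative cells and did not pass (limma adjusted p = 0.107, and 0.0163 without Biotin-negative replicate 2). The Itga3 to Itga6 ratio within a library was 0.197 ± 0.00825 in Biotin-positive cells and 0.0667 ± 0.00508 in Biotin-negative cells (SD, n = 3 each; two-sided exact permutation p = 0.10). Itgb4, the beta chain that joins alpha6 in the hemidesmosomes of epithelia, rose to 2.05, 2.06 and 2.18 FPKM in Biotin-positive libraries, against 1.06, 1.00 and 1.12 FPKM in Biotin-negative libraries (log2 difference 0.59, SE 0.0593, limma adjusted p = 2.67e-05). These groups do not overlap, although both are low beside Itga6. A neighbouring noncoding gene on the opposite strand shares 7.66% of the exonic bases of Itgb4 in the GENCODE vM21 annotation, and whether counting used strand is not given in the sources used here.

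Itga3, Itgb4 and Itgb6 are known from epithelia as well as from other tissues. Of 12 epithelial markers, 2 reached 1 FPKM in at least 3 libraries, Krt7 and Krt8, both with higher values in the Biotin-positive libraries. Krt7 averaged 24.7 ± 1.18 FPKM in Biotin-positive cells and 0.236 ± 0.0759 FPKM in Biotin-negative cells, and Krt8 averaged 20.8 ± 0.355 FPKM in Biotin-positive cells and 0.0362 ± 0.0153 FPKM in Biotin-negative cells (SD, n = 3 each). Krt7 and Krt8 passed the filter through the Biotin-positive libraries alone, so their values are given as a description without a test. Krt8 is of uncertain level, because 51.8% of its transcript recurs nearly unchanged in other genes of the annotation. The 12 markers summed to between 45.1 and 47.6 FPKM in Biotin-positive libraries and between 0.671 and 0.718 FPKM in Biotin-negative libraries. The other 10 stayed below 0.5 FPKM, with Cdh1 listed at 0 in every Biotin-positive library. Among these 10 only Grhl2 did not overlap between the groups. It was at 0.0818 to 0.156 FPKM in Biotin-positive libraries and 0.0196 to 0.0343 FPKM in Biotin-negative libraries, without a test. Epcam was at no more than 0.0231 FPKM and Krt18 at no more than 0.0263 FPKM in any library. The part of Krt7 and Krt8 expressing cells in the Itga3, Itgb4 and Itgb6 values was not tested.

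Of the beta chains best known from leukocytes, Itgb7 was higher and Itgb2 lower in Biotin-positive cells. Itgb7, which pairs with alpha4 or alphaE on lymphocytes, lies on chromosome 15 (102215995 to 102231944 in the deposited file, ENSMUSG00000001281). It had 55.1, 53.3 and 54.1 FPKM in Biotin-positive libraries, against 20.2, 18.1 and 19.3 FPKM in Biotin-negative libraries. The groups are well apart, and Itgb7 had the largest log2 rise of the 30 tested genes (1.45, SE 0.0437, ratio 2.82, limma adjusted p = 2.48e-08). The transcripts of its known alpha partners were scarce, Itga4 at 0.171 to 0.195 FPKM in Biotin-positive libraries and 0.201 to 0.235 FPKM in Biotin-negative libraries, and Itgae at no more than 0.0674 FPKM in any library. Itgb2, the beta chain of LFA-1 and related leukocyte receptors, was at 0.201, 0.330 and 0.429 FPKM in Biotin-positive libraries, against 2.04, 2.03 and 2.03 FPKM in Biotin-negative libraries. Itgal, the alpha chain of LFA-1, averaged 0.819 ± 0.0400 FPKM in Biotin-positive cells and 1.40 ± 0.114 FPKM in Biotin-negative cells, and it was the only one of 6 other alpha chains past the filter. Both genes passed the filter through the Biotin-negative libraries alone, so their values are given as a description without a test. The 10 leukocyte markers summed to between 15.1 and 17.9 FPKM in Biotin-positive libraries and between 13.9 and 17.1 FPKM in Biotin-negative libraries. Most came from Cd68, Cd14, Lyz2 and Itgb2 itself, which went in different directions. Cd14 rose to 6.39 ± 0.917 FPKM in Biotin-positive cells, against 3.40 ± 0.674 FPKM in Biotin-negative cells. Lyz2 rose to 2.42 ± 0.199 FPKM, against 1.36 ± 0.164 FPKM, and Cd68 fell to 7.13 ± 0.805 FPKM, against 8.59 ± 0.864 FPKM, in the same order of groups. Adgre1 and Cd3e were listed at 0 in every library, and the pan-leukocyte gene Ptprc was at 0 in each Biotin-positive library and at no more than 0.0354 FPKM in the others.

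Chains of collagen receptors and the alpha4 and alpha9 chains were near the floor of the table. Itga1, Itga2, Itga10 and Itga11 together summed to 0.470 ± 0.0951 FPKM in Biotin-positive cells and 0.229 ± 0.0987 FPKM in Biotin-negative cells (SD, n = 3 each), with 33.5% of the exonic bases of Itga10 shared with another gene. Within that small sum Itga2 lay at 0.139, 0.0972 and 0.144 FPKM in Biotin-positive libraries, against 0.00826, 0.0200 and 0.00983 FPKM in Biotin-negative libraries, without overlap and without a test. Itga9 did not exceed 0.0144 FPKM. Of the 20 integrin subunits, 10 reached testing, of which 3 rose, 2 fell, Itgb2 among them, and 5 did not pass, beside 37.8% and 36.1% of all tested genes that rose and fell.

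**Figure D2:**
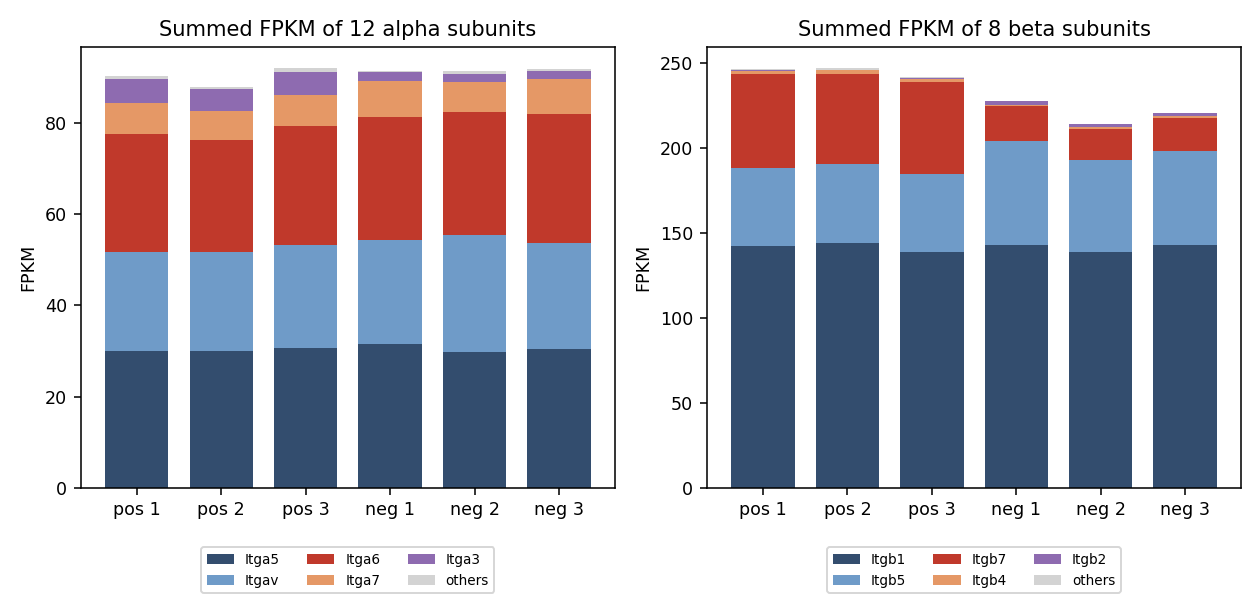
Stacked bars give the FPKM of each integrin chain per library on linear axes from 0, alpha chains on the left and beta chains on the right, with Biotin-positive libraries (pos) before Biotin-negative libraries (neg). The alpha totals span 87.9 to 91.9 FPKM over all 6 libraries, and in the beta bars the Itgb7 segment is larger and the Itgb5 segment smaller in the Biotin-positive libraries.

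Summed over chains, the alpha side barely differed and the beta side changed its make-up. The 12 alpha chains summed to 90.1 ± 2.02 FPKM in Biotin-positive cells and 91.6 ± 0.322 FPKM in Biotin-negative cells, and the 8 beta chains to 245 ± 2.50 FPKM in Biotin-positive cells and 221 ± 6.60 FPKM in Biotin-negative cells (SD, n = 3 each). The order of the alpha chains by level was Itga5, Itga6, Itgav, Itga7 and Itga3 in both groups, and no 2 neighbours in that order overlapped in range within either group. Itga3 held 5.59% ± 0.300 of the alpha sum in Biotin-positive cells and 2.00% ± 0.136 in Biotin-negative cells. Among beta chains Itgb1 led in both groups, with 57.9% ± 0.493 of the beta sum in Biotin-positive cells and 64.1% ± 1.18 in Biotin-negative cells. The next place differed between the groups. Itgb7 came before Itgb5 in Biotin-positive cells, with 22.1% ± 0.465 against 18.8% ± 0.0842 of the beta sum, and Itgb5 came before Itgb7 in Biotin-negative cells, with 25.7% ± 1.05 against 8.70% ± 0.227. Itgb7 and Itgb5 did not overlap in range in either group. These sums describe transcripts, not receptors at the surface, and no test was made of them.

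**Figure D3:**
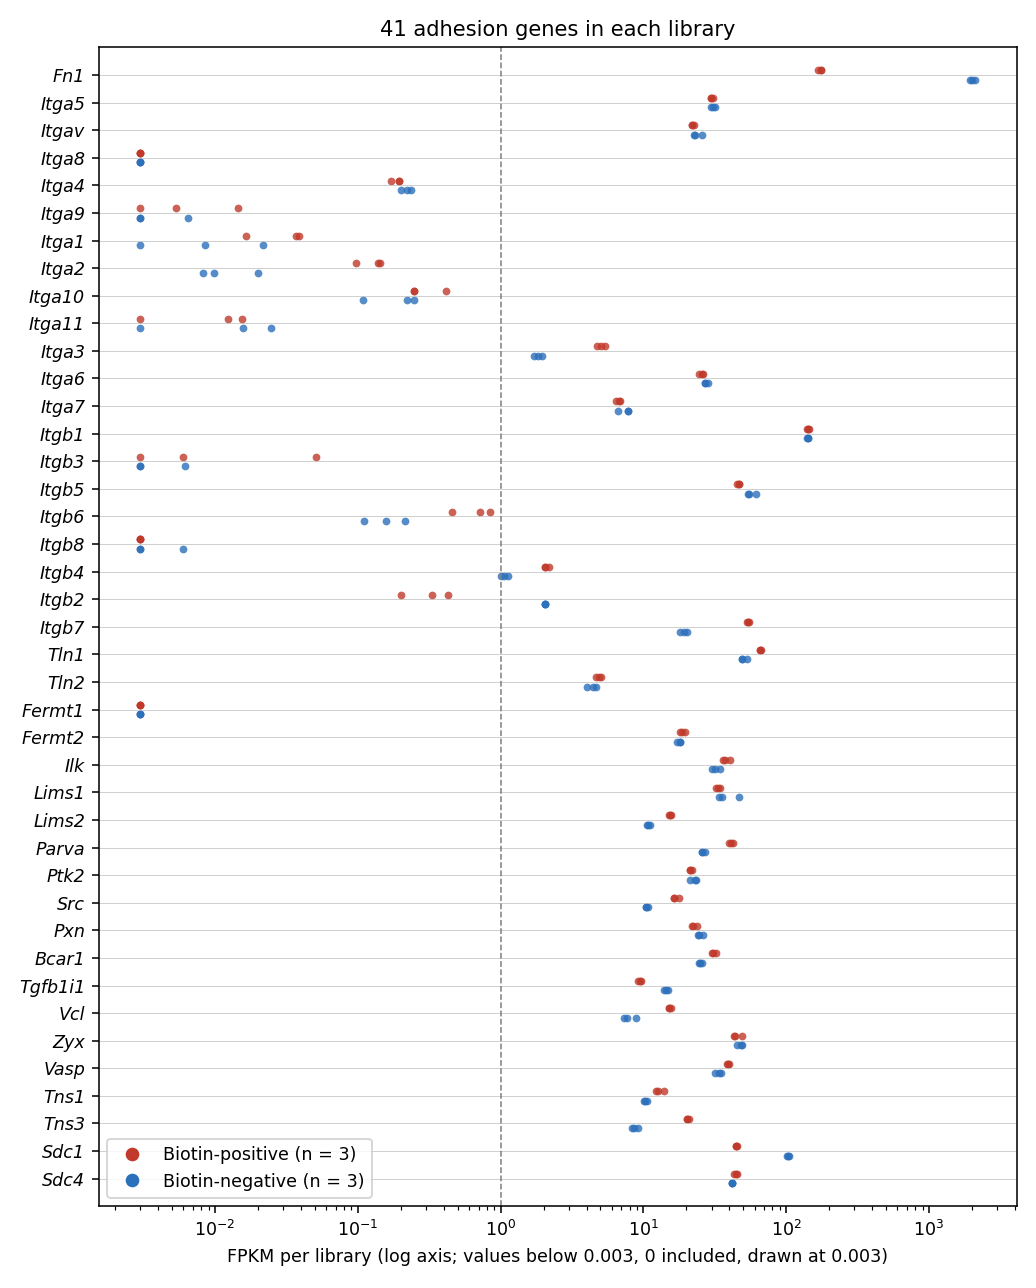
Each row is 1 of the 41 genes and each point 1 library, with FPKM on a log axis, Biotin-positive points above Biotin-negative points, and the dashed line at 1 FPKM. The gap between the groups is widest for Fn1 among genes above 1 FPKM in both groups, and the 11 genes that were not tested lie left of the dashed line.

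Of the 3 tested activators of integrins, 1 rose and 2 did not pass, where 37.8% of all tested genes rose. Tln1, the main talin of fibroblasts, which binds beta tails and links them to actin, rose to 66.2, 65.2 and 65.9 FPKM in Biotin-positive libraries, against 52.9, 48.8 and 49.2 FPKM in Biotin-negative libraries. Its groups did not overlap (ratio 1.31, log2 difference 0.38, SE 0.0373, limma adjusted p = 2.26e-05). Its paralog Tln2 averaged 4.89 ± 0.214 FPKM in Biotin-positive cells and 4.37 ± 0.288 FPKM in Biotin-negative cells and did not pass (limma adjusted p = 0.0821), although it passed under quantile normalization (limma adjusted p = 0.0349). Fermt2, the kindlin of mesenchymal cells and coactivator of talin, averaged 18.7 ± 0.706 FPKM in Biotin-positive cells and 17.7 ± 0.437 FPKM in Biotin-negative cells and did not pass (limma adjusted p = 0.161). The epithelial kindlin Fermt1 was listed at 0 in every library.

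ILK, the PINCH proteins and the parvins form a complex at integrin tails that anchors them to actin. Parva, which encodes the actin-binding alpha-parvin, rose to 42.1, 40.0 and 41 FPKM in Biotin-positive libraries, against 25.8, 25.6 and 27.0 FPKM in Biotin-negative libraries. The lowest Biotin-positive value lies well above the highest Biotin-negative one (ratio 1.57, log2 difference 0.63, SE 0.0369, limma adjusted p = 8.93e-07). Lims2, encoding PINCH2, rose to 15.0, 15.6 and 15.4 FPKM in Biotin-positive libraries, against 10.6, 11.1 and 10.7 FPKM in Biotin-negative libraries (limma adjusted p = 1.19e-05). Lims1, encoding PINCH1, was at 34.6, 33.2 and 32.3 FPKM in Biotin-positive libraries, against 35.3, 46.7 and 33.8 FPKM in Biotin-negative libraries, where replicate 2 stands above the rest. Lims1 did not pass (limma adjusted p = 0.134, and 0.0408 without Biotin-negative replicate 3), and the Lims2 to Lims1 ratio was 0.460 ± 0.0235 in Biotin-positive cells and 0.285 ± 0.0423 in Biotin-negative cells (SD, n = 3 each; two-sided exact permutation p = 0.10). Ilk, the pseudokinase core of the complex, rose to 37.9 ± 2.44 FPKM in Biotin-positive cells, against 31.9 ± 2.19 FPKM in Biotin-negative cells (limma adjusted p = 0.00641). Its call is uncertain, since Taf10 on the opposite strand shares 76.7% of its exonic bases in GENCODE vM21 and itself averaged 29.9 ± 0.192 FPKM in Biotin-positive cells and 26.0 ± 0.758 FPKM in Biotin-negative cells, and its part in the Ilk value was not tested.

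Of 5 signalling proteins of the adhesion, 2 rose, 2 fell and 1 did not pass, where 37.8% of all tested genes rose and 36.1% fell. Src, the tyrosine kinase that acts with focal adhesion kinase, rose to 17.6, 16.4 and 16.4 FPKM in Biotin-positive libraries, against 10.8, 10.4 and 10.4 FPKM in Biotin-negative libraries (ratio 1.59, log2 difference 0.62, SE 0.0458, limma adjusted p = 3.63e-06). The groups did not overlap. Bcar1, which encodes the Src substrate p130Cas, rose to 31.0 ± 0.983 FPKM in Biotin-positive cells, against 25 ± 0.50 FPKM in Biotin-negative cells (limma adjusted p = 0.000103). Ptk2, the gene of focal adhesion kinase itself, averaged 21.4 ± 0.243 FPKM in Biotin-positive cells and 22.6 ± 1.22 FPKM in Biotin-negative cells and did not pass (limma adjusted p = 0.181). It passed as a fall with an equal sum per library (limma adjusted p = 0.0228) and without Biotin-negative replicate 2 (limma adjusted p = 0.0276). The 2 genes that fell encode related LIM adaptors. Tgfb1i1, the gene of Hic-5, was at 9.68, 9.51 and 9.17 FPKM in Biotin-positive libraries, against 14.0, 14.9 and 14.4 FPKM in Biotin-negative libraries (ratio 0.656, log2 difference -0.56, SE 0.0458, limma adjusted p = 7.24e-06). Its paralog Pxn, the gene of paxillin, fell to 22.6 ± 1.12 FPKM in Biotin-positive cells, against 24.9 ± 1.20 FPKM in Biotin-negative cells (limma adjusted p = 0.0383). The Pxn call was lost without Biotin-positive replicate 1 (limma adjusted p = 0.0972), without Biotin-positive replicate 2 (limma adjusted p = 0.127) and without Biotin-negative replicate 1 (limma adjusted p = 0.122).

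Of 5 proteins that join adhesions to actin, 4 rose and 1 did not pass, where 37.8% of all tested genes rose. Tns3, a tensin that binds integrin tails and actin-linked partners, stood at 20.3, 20.2 and 20.9 FPKM in Biotin-positive libraries, against 8.63, 9.11 and 8.32 FPKM in Biotin-negative libraries. The groups are clearly separate (ratio 2.36, log2 difference 1.15, SE 0.0460, limma adjusted p = 1.04e-07). Its relative Tns1 rose to 13.0 ± 0.901 FPKM in Biotin-positive cells, against 10.3 ± 0.251 FPKM in Biotin-negative cells (limma adjusted p = 0.00114). The Tns3 to Tns1 ratio was 1.58 ± 0.0782 in Biotin-positive cells and 0.840 ± 0.0528 in Biotin-negative cells (SD, n = 3 each, two-sided exact permutation p = 0.10). The more abundant tensin of this pair thus differed between the groups. Tns2, a tensin from a further list, was at a higher level than either and fell. It averaged 48.6 ± 1.67 FPKM in Biotin-positive cells and 60.7 ± 3.14 FPKM in Biotin-negative cells (limma adjusted p = 0.000223). Vcl encodes vinculin, which reinforces the talin to actin link under load. It was at 15.1, 15.7 and 15.0 FPKM in Biotin-positive libraries, against 8.83, 7.31 and 7.69 FPKM in Biotin-negative libraries (ratio 1.92, log2 difference 0.86, SE 0.0660, limma adjusted p = 4.64e-06). In GENCODE vM21 the gene Ap3m1 on the opposite strand shares 25.5% of the exonic bases of Vcl, and 39.8% of the longest coding Vcl transcript. Ap3m1 averaged 17.6 ± 0.328 FPKM in Biotin-positive cells and 10.2 ± 0.276 FPKM in Biotin-negative cells. The Vcl level is therefore uncertain, and the part of Ap3m1 in it was not tested. Vasp, which promotes actin filament growth, rose to 39.2 ± 0.768 FPKM in Biotin-positive cells, against 33.4 ± 1.76 FPKM in Biotin-negative cells (limma adjusted p = 0.00145). Zyx, the gene of the LIM protein zyxin, averaged 45.0 ± 3.12 FPKM in Biotin-positive cells and 47.6 ± 2.09 FPKM in Biotin-negative cells and did not pass (limma adjusted p = 0.216). Zyx passed as a fall under quantile normalization (limma adjusted p = 0.0212), with an equal sum per library (limma adjusted p = 0.0352) and without Biotin-positive replicate 1 (limma adjusted p = 0.0305).

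Syndecans are heparan sulfate proteoglycans that bind fibronectin beside integrins. Of the 4 syndecan genes, Sdc1 fell, as did Sdc2 and Sdc3 from a further list, and Sdc4 rose slightly. Of all tested genes 36.1% fell, 37.8% rose and 73.9% did either. Sdc1 fell to 44.7, 44.2 and 45.5 FPKM in Biotin-positive libraries, against 104, 101 and 102 FPKM in Biotin-negative libraries (ratio 0.438, log2 difference -1.17, SE 0.0292, limma adjusted p = 9.95e-09). Every Biotin-positive value is less than every Biotin-negative one by a wide margin. Sdc4, the syndecan that sits in focal adhesions, rose slightly to 44.5 ± 1.18 FPKM in Biotin-positive cells, against 41.8 ± 0.171 FPKM in Biotin-negative cells (limma adjusted p = 0.0369). That call was lost with an equal sum per library (limma adjusted p = 0.483) and under quantile normalization (limma adjusted p = 0.734). It was also lost on leaving out any 1 library other than Biotin-positive replicate 2, with limma adjusted p-values of 0.0635 to 0.116. The Sdc1 to Sdc4 ratio was 1.01 ± 0.0222 in Biotin-positive cells and 2.45 ± 0.0368 in Biotin-negative cells (SD, n = 3 each; two-sided exact permutation p = 0.10). The exact permutation p of each ratio, also after Benjamini-Hochberg adjustment, was 0.10, the smallest that 3 libraries against 3 allow. These tests therefore support nothing. In all 8 such ratios were computed, and all were picked after values were seen. Of the other 3, Itgb7 to Itgb1 was 0.382 ± 0.0112 in Biotin-positive cells and 0.136 ± 0.00567 in Biotin-negative cells, Itgb5 to Itgb1 was 0.325 ± 0.00391 in Biotin-positive cells and 0.401 ± 0.0240 in Biotin-negative cells, and Tln1 to Tln2 was 13.5 ± 0.494 in Biotin-positive cells and 11.5 ± 0.481 in Biotin-negative cells.

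**Figure D4:**
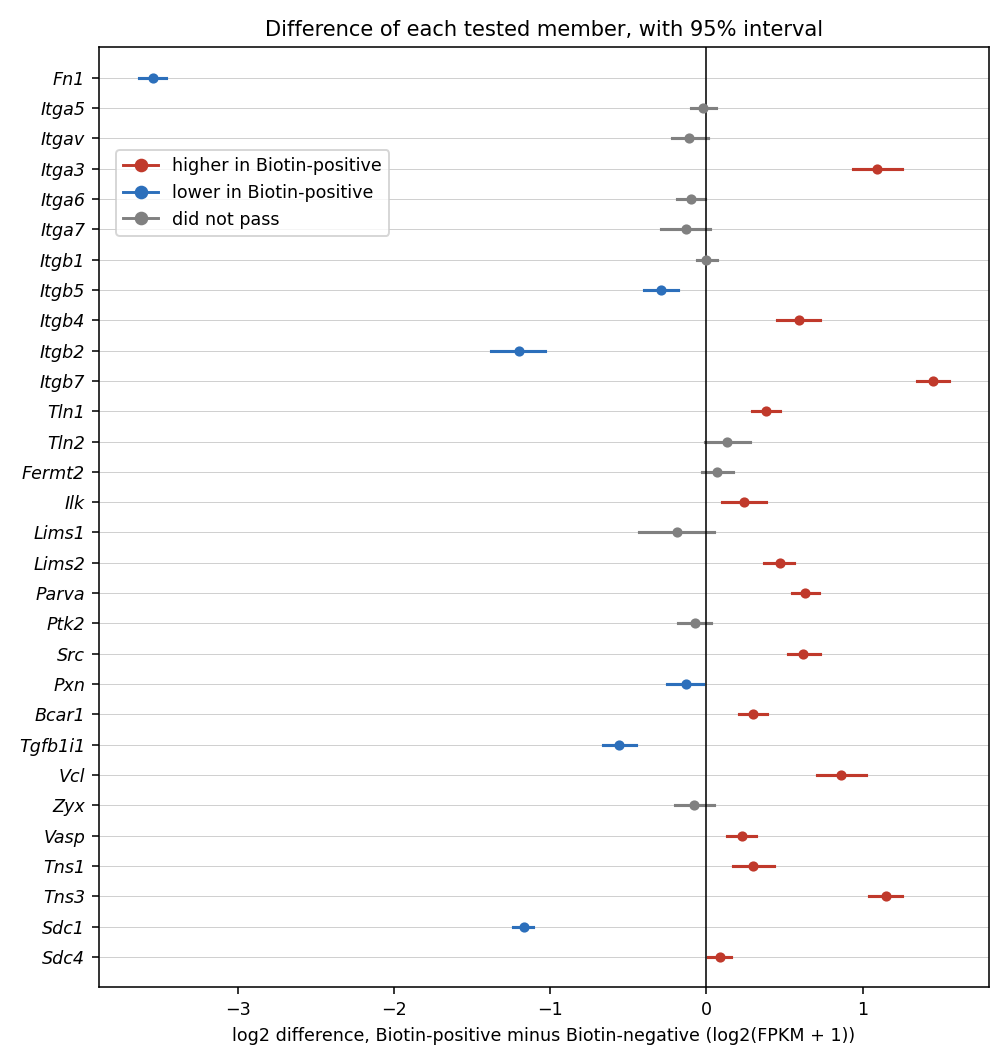
Points give the log2 difference, Biotin-positive minus Biotin-negative, of each of the 30 tested genes with its 95% interval from limma, coloured by whether the gene was higher, lower or did not pass at an adjusted p of 0.05. Fn1 stands alone at -3.54, the 10 grey genes lie between -0.19 and 0.13, and of the 17 tested cytoplasmic proteins 10 are higher, 2 lower and 5 grey, beside 37.8% of all tested genes that were higher and 36.1% that were lower.

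Promoters were read for the genes above whose change reached 1 log2 unit, where the promoter table had them, and for Vcl. Among the 41 genes, 29 had an entry in the RefSeq promoter table (GRCm38.p6), which gives 250 bases before to 50 bases after each start, for 35 starts in all. Fn1, Itgb2, Itgb3, Itgb4, Itga6, Itga7, Tln2, Lims2, Parva, Ptk2, Pxn and Tgfb1i1 had none. The windows were searched on both strands for the TEAD motif GGAATG and the CArG box of serum response factor. They were also searched for the AP-1-like pattern TGANTCA, with any base at N and so wider than the AP-1 consensus. The TEAD motif was in 3 of the 35 windows (Itga10, Itgb1 and Vcl), against 14.7% of all 32851 windows. The AP-1-like pattern was in 3 (Itga3, Itga9 and Zyx), against 7.81% of all windows. The CArG box was in 3 (Fermt2, Itgb6 and Vcl), against 1.63% of all windows. Median GC content was 65.7% in the 35 windows and 52.7% in all windows. A match describes these letters and is no evidence of binding.

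The Vcl window is shown because it is the only one of the 35 with a match to both the TEAD motif and the CArG box, and it was chosen after the matches were seen. It spans chr14:20929148-20929447 (GRCm38.p6, plus strand), with the matches in capitals.
Vcl: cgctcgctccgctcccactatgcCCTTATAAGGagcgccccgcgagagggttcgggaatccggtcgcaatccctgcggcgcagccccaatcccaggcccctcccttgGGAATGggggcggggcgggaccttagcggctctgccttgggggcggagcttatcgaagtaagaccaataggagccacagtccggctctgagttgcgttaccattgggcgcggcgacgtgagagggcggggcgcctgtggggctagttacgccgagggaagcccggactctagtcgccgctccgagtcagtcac

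The upstream start of Itga3 (chr11:95076665-95076964, GRCm38.p6, minus strand) held none of the motifs. A downstream start (chr11:95069149-95069448, GRCm38.p6, minus strand) held a match to the pattern TGANTCA with A at N, in capitals below. The windows of Tns3 (chr11:8664486-8664785, minus strand), Itgb7 (chr15:102231886-102232185, minus strand) and Sdc1 (chr12:8771146-8771445, plus strand) held no match to the 3 motifs, and they are shown as the promoters of the largest rises and of Sdc1, which fell.
Itga3: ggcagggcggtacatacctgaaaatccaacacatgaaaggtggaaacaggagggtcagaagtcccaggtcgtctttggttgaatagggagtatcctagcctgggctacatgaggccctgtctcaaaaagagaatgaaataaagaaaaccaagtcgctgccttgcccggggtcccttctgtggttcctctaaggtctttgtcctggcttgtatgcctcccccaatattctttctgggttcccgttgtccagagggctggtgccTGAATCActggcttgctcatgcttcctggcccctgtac
Tns3: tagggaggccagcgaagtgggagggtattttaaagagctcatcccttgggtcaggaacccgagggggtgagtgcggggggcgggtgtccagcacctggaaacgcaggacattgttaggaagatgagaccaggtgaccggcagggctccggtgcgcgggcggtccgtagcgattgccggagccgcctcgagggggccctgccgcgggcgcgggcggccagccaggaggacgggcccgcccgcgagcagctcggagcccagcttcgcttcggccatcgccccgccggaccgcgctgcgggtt
Itgb7: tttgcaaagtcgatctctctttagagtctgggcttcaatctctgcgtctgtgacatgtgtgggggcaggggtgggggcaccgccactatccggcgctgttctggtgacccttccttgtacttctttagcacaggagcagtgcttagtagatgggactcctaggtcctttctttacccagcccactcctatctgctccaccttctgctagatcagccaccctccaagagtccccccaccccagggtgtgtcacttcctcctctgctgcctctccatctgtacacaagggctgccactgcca
Sdc1: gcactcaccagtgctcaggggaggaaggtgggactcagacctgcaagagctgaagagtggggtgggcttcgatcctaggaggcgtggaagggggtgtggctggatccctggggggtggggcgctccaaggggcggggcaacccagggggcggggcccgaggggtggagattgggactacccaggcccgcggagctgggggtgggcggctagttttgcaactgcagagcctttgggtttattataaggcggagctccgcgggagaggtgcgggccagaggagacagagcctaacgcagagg

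Further genes of the same machinery were read from 6 lists. Their counts stand beside 37.8% of all tested genes that rose, 36.1% that fell and 73.9% that did either. The lists were chosen with earlier results of these data known, so their counts and medians are a description. Of 21 tested structural proteins of focal adhesions outside the 41 genes, 13 rose, 4 fell and the other 4 missed the threshold, at a median log2 difference of 0.46 against 0.01 over all tested genes. Enah, a relative of VASP, was at 1.08, 1.19 and 1.5 FPKM in Biotin-positive libraries, against 0.00981, 0 and 0 FPKM in Biotin-negative libraries. It is 1 of the 13, is included in the median, and passed the filter through the Biotin-positive libraries alone, so its test supports nothing. The actin crosslinker filamin A, Flna, rose to 76.8 ± 1.63 FPKM in Biotin-positive cells, against 39.8 ± 1.29 FPKM in Biotin-negative cells, and alpha-actinin 4, Actn4, to 133 ± 4.66 FPKM in Biotin-positive cells, against 72.4 ± 3.80 FPKM in Biotin-negative cells. The LIM protein gene Lpp fell to 3.56 ± 0.140 FPKM in Biotin-positive cells, against 7.39 ± 0.164 FPKM in Biotin-negative cells.

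Signalling adaptors, kinases and exchange factors outside the 41 genes had 6 rises, 12 falls and 6 not passing of 24 tested, with a median of -0.20. All tested genes split into 37.8% rises and 36.1% falls. Both Cas-family relatives of Bcar1 were lower. Cass4 averaged 1.55 ± 0.142 FPKM in Biotin-positive cells and 5.59 ± 0.196 FPKM in Biotin-negative cells (limma adjusted p = 2.33e-07), with 30.4% of its transcript near-identical to another annotated gene. Nedd9 averaged 11.5 ± 0.418 FPKM in Biotin-positive cells and 26.8 ± 1.17 FPKM in Biotin-negative cells (limma adjusted p = 1.11e-07). The adaptor gene Nck1 fell to 5.33 ± 0.216 FPKM in Biotin-positive cells, against 8.98 ± 1.11 FPKM in Biotin-negative cells, and Ptk2b, the relative of focal adhesion kinase, to 2.47 ± 0.125 FPKM in Biotin-positive cells, against 3.90 ± 0.294 FPKM in Biotin-negative cells.

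Genes that restrain integrins or carry them through endosomes had 6 rises, 3 falls and 4 not passing of 13 tested, with a median of 0.05, a share of calls near the 73.9% of all tested genes. Dab2, an endocytic adaptor for integrins, rose to 20.1 ± 0.527 FPKM in Biotin-positive cells, against 7.51 ± 0.285 FPKM in Biotin-negative cells (limma adjusted p = 5.00e-08). Slc3a2, the CD98 heavy chain that binds beta tails, fell to 158 ± 0.892 FPKM in Biotin-positive cells, against 277 ± 12 FPKM in Biotin-negative cells (limma adjusted p = 1.56e-07). The talin-binding gene Kank2 rose to 15.6 ± 0.0894 FPKM in Biotin-positive cells, against 10.8 ± 0.405 FPKM in Biotin-negative cells, and Dok1, whose protein competes with talin for beta tails, to 27.0 ± 0.878 FPKM in Biotin-positive cells, against 20.3 ± 0.801 FPKM in Biotin-negative cells.

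Other ligands of integrins had 4 rises and 4 falls of 8 tested and a median of 0.04, where 37.8% of all tested genes rose and 36.1% fell. The matricellular ligand Ccn1 rose to 164 ± 3.86 FPKM in Biotin-positive cells, against 19.5 ± 0.458 FPKM in Biotin-negative cells, and Thbs1, the thrombospondin, to 11.1 ± 0.554 FPKM in Biotin-positive cells, against 3.59 ± 0.236 FPKM in Biotin-negative cells. Osteopontin, Spp1, fell to 290.1 ± 11.5 FPKM in Biotin-positive cells, against 1301 ± 26.0 FPKM in Biotin-negative cells (log2 difference -2.16, limma adjusted p = 1.44e-09), and fibrillin 1, Fbn1, to 15.3 ± 0.605 FPKM in Biotin-positive cells, against 31.9 ± 1.85 FPKM in Biotin-negative cells, with 20.4% of the Fbn1 transcript nearly the same as another annotated gene. Vitronectin, Vtn, the other classical RGD ligand, was listed at 0 in each Biotin-positive library and did not exceed 0.0592 FPKM in the others. Of 6 tested partners of fibronectin assembly 2 rose and 4 fell, with a median of -0.49, beside the same 37.8% and 36.1% of all tested genes. Emilin1, an elastic-fibre glycoprotein, fell to 21.1 ± 0.384 FPKM in Biotin-positive cells, against 56.9 ± 2.21 FPKM in Biotin-negative cells (limma adjusted p = 1.56e-08). The syndecan genes Sdc3 and Sdc2 fell to 29.3 ± 0.832 and 27.0 ± 1.59 FPKM in Biotin-positive cells, against 49.4 ± 1.44 and 44.4 ± 1.09 FPKM in Biotin-negative cells. The urokinase receptor gene Plaur rose to 59.4 ± 2.19 FPKM in Biotin-positive cells, against 22.3 ± 0.999 FPKM in Biotin-negative cells (limma adjusted p = 3.26e-08).

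**Figure D5:**
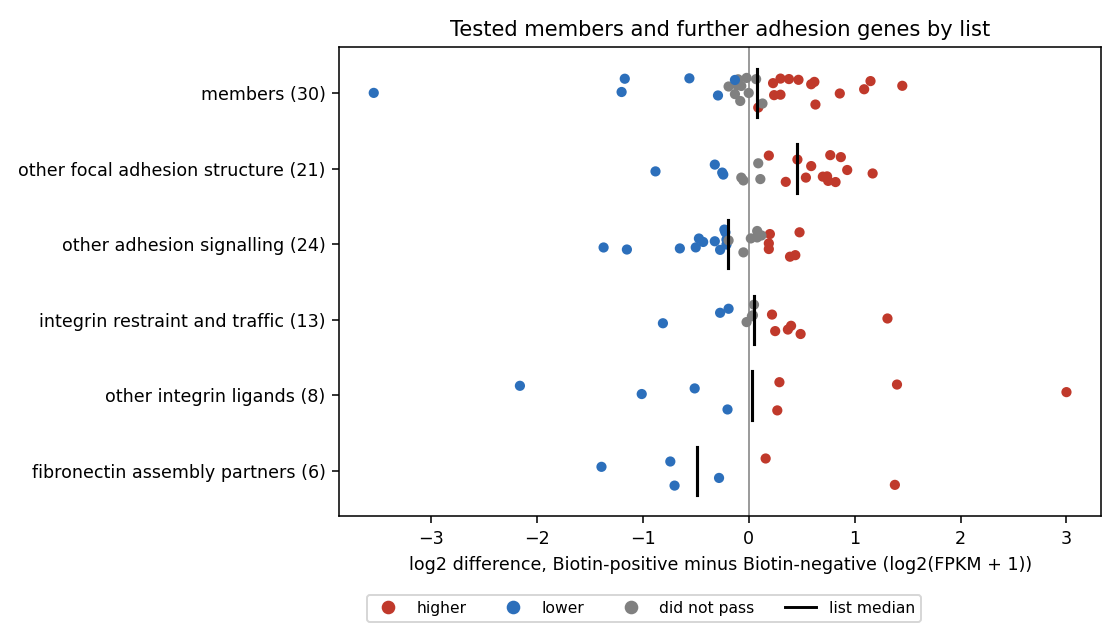
Each point is a tested gene placed by its log2 difference, Biotin-positive minus Biotin-negative, in rows for the 30 tested genes of the 41 (members) and 5 further lists, with the number tested in brackets, a black line at each median and vertical scatter without meaning. The medians are 0.46 for other focal adhesion structure, Enah included, -0.20 for other adhesion signalling and -0.49 for partners of fibronectin assembly.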

How the data were processed

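RNA of 3 Biotin-positive and 3 Biotin-negative L929 libraries was sequenced. Per the submitters' processing notes, cutadapt 1.9.1, HISAT2 2.2.1 and HTSeq 0.6.1 were used, with genome build GRCm39. The deposited values are FPKM per gene and library. How the authors turned counts into FPKM, the scaling denominator and the use of strand are not given in the sources used here. Low values show no steps of single reads, so depth is unknown and no interval rests on it.

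Genes of at least 1 FPKM in at least 3 of 6 libraries were compared as log2(FPKM + 1) with limma 3.58.1 in R 4.3.3 (eBayes with a trend, two-sided, Benjamini-Hochberg adjustment, threshold 0.05). The procedure was first run on simulated data. Their genes were drawn independently and far fewer of them changed than here, so that run lends the calls no support. For ratios the test was an exact permutation of the libraries (scipy 1.17.1). Alternatives were other pseudocounts, filters, scalings, priors, the replicate number as a term and leaving out each library.

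Genes and lists were chosen with earlier results of these data known. The naming rule takes all 41 genes and up to 4 called genes per further list with the largest change. The 8 ratios, Enah's library values and genes such as Tns2, Vtn, Itgae and Ptprc were picked after values were seen. Overlapping exons and near-identical transcripts (blastn 2.17.0, at least 98% identity over 100 bases) came from GENCODE vM21, of which only bases and names were used. Gene coordinates are those of the deposited file, and promoters are RefSeq windows on GRCm38.p6. The Vcl start in the file, 20929398, and the Itgb7 end, 102231944, lie inside the GRCm38.p6 windows of these genes. The file's coordinates thus match GRCm38, although the processing notes name GRCm39.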

Additional observations from a re-analysis of the deposited data

How the results depend on the processing

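Under 16 alternatives, the number of the 41 genes called higher stayed between 12 and 16 against 14. The number called lower stayed between 5 and 9 against 6, except with an equal sum per library, where it was 11 and the median of all tested genes shifted by -0.06 log2 units. Leaving out 1 library gave 13 to 14 higher and 5 to 8 lower. The Fn1 difference ranged from -3.60 to -3.51 and passed each time. The minimum of 5 FPKM left Itga3, Itgb2, Itgb4 and Tln2 without a value. Of 476 differences recomputed for single genes, 441 kept their direction and their side of the threshold, 15 lost and 15 gained a call, and 5 changed sign. All 15 losses were of Pxn or Sdc4. The sign changes were Itgb1 with -0.11 under quantile normalization, -0.06 with an equal sum per library and -0.01 without replicate 2 of either group, and Itga5 with 0.00047 without Biotin-negative replicate 1. Leaving out 1 library moved Itgb1 between -0.01 and 0.01 and Itga5 between -0.04 and 0.00047. With the replicate number as a block, 13 genes were higher and 6 lower, with Sdc4 (limma adjusted p = 0.0511) and Pxn (limma adjusted p = 0.0531) no longer called and Itga6 (limma adjusted p = 0.0471) now called. The deviations of equal-numbered libraries correlated by 0.012 to 0.0371 across genes, too little to take the numbers as pairs, although 4 of 6 libraries correlated best with their own number, a hint of pairing from the data and not the design. The causes of these changes were not tested.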
